A study of Mus musculus with 12 samples.

Results

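The forkhead transcription factors Foxf1, Foxf2, Foxl1, Foxc1, Foxc2, Foxq1 and Foxd1 were followed in mouse melanoma cells labelled as carrying an active or an edited Gli2. These 7 genes were taken by symbol out of 54532 genes with a measured RNA level, with no threshold on their values, and each symbol matched 1 gene. Forkhead factors bind DNA through a winged-helix domain, and many of them direct the fate of mesenchymal cells in the embryo. In the mouse, Hedgehog ligands from gut and lung epithelium act through Gli factors on the mesenchyme beneath, where Foxf1, Foxf2 and Foxl1 are known Hedgehog-responsive genes. Foxc1 and Foxc2 act in paraxial mesoderm and in vessels, Foxd1 marks the stroma of the developing kidney, and Foxq1 is needed for normal hair structure.

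Poly(A)-selected RNA from 12 libraries of mouse melanoma cell lines was sequenced, 3 libraries in each of 4 groups. All groups share 1 labelled cell line background, which carries an activated BRAF kinase. Gli2CA cells are labelled as carrying an active Gli2 mutation and were set against NTC cells, a non-targeted control. Cells labelled Cas9-Gli2KO, a CRISPR knockout of Gli2, were set against Cas9-NTC cells, their own non-targeted control. The first pair asks which forkhead genes change with active Gli2, the second which change with its editing. Puromycin (1 ug/mL) was in the medium of every group and blasticidin (10 ug/mL) only in that of the Cas9 groups. The labels give neither the promoter and sequence of the introduced Gli2, nor the guides, nor whether a line is 1 clone. Separate cultures are not named for the replicates either, so the spread behind each p-value may be technical.

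Each library held 15972800 to 25983200 reads as recovered from the deposited values, and levels are FPKM, which scales for gene length and library size. Gli2 RNA, a transcriptional effector of Hedgehog signalling, did not follow either label. It had 1, 0 and 5 reads in the Gli2CA libraries and 0 reads in each NTC library. The libraries labelled Cas9-Gli2KO had 130, 140 and 345 Gli2 reads, all above the 29, 61 and 42 reads of the Cas9-NTC libraries (exact 2-sided permutation p = 0.1, the smallest that 3 against 3 libraries can give). Directions in the second pair therefore rest on the label alone. Gli2 RNA was higher under that label, and since the guides are not given, its level cannot show whether the label holds. Gli1, a direct Hedgehog target, averaged 1.19 ± 0.193 FPKM in Gli2CA and 0.189 ± 0.0346 FPKM in NTC libraries, and Ptch1, the receptor and feedback target, 5.72 ± 0.189 and 2.61 ± 0.114 FPKM (SD, n = 3 each). In the second pair both genes had overlapping libraries. Gli1 averaged 0.101 ± 0.0663 FPKM in libraries labelled Cas9-Gli2KO and 0.0704 ± 0.0238 FPKM in Cas9-NTC (exact 2-sided permutation p = 0.7). Ptch1 averaged 1.47 ± 0.742 and 2.05 ± 0.0934 FPKM (log2 change -0.34, limma adjusted p = 0.264). Library 3 labelled Cas9-Gli2KO stood apart from libraries 1 and 2 of its group. Their recovered reads differed with a chi-square per degree of freedom of 259 (libraries 1 and 3) and 154 (libraries 2 and 3), against 21.6 between libraries 1 and 2 and 4.18 to 18.9 within the other groups.

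Of the 14 melanocyte markers, 4 averaged over 1 FPKM in Gli2CA and in NTC cells, and 2 in each Cas9 group. The pigment enzyme genes Tyrp1 and Dct were at 0 in every library. Sox10, which defines the neural crest and melanocyte lineage, averaged 162 ± 8.53 FPKM in Gli2CA and 189 ± 10.6 FPKM in NTC cells, but 0.00465 ± 0.00805 FPKM in the libraries labelled Cas9-Gli2KO and 0.0280 ± 0.0291 FPKM in Cas9-NTC. Other markers ran the other way: Mitf, the master regulator of melanocytes, averaged 2.22 ± 0.211 FPKM in libraries labelled Cas9-Gli2KO and 2.67 ± 0.0418 FPKM in Cas9-NTC, but 1.06 ± 0.0796 FPKM in Gli2CA and 1.03 ± 0.103 FPKM in NTC. Gpnmb, a melanosome glycoprotein, averaged 74.8 ± 19.3 FPKM in libraries labelled Cas9-Gli2KO and 110 ± 0.899 FPKM in Cas9-NTC, but 5.24 ± 0.284 FPKM in Gli2CA and 10.7 ± 0.637 FPKM in NTC. Between Cas9-NTC and NTC, limma called 2 of 4 tested melanocyte markers higher and 2 lower, beside 31.9% and 33.3% of all genes tested.

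The 7 genes lie at 3 places in the mouse genome (GENCODE M21, GRCm38). Foxf1 (ENSMUSG00000042812, chromosome 8, 121084386 to 121088144, plus strand, 2 exons), Foxc2 (ENSMUSG00000046714, chromosome 8, 121116171 to 121118895, plus strand, 1 exon) and Foxl1 (ENSMUSG00000097084, chromosome 8, 121127940 to 121130644, plus strand, 1 exon) form a cluster, with Foxc2 and Foxl1 starting 31.8 and 43.6 kb from the start of Foxf1. Foxq1 (ENSMUSG00000038415, chromosome 13, 31556134 to 31560976), Foxf2 (ENSMUSG00000038402, chromosome 13, 31625816 to 31631403) and Foxc1 (ENSMUSG00000050295, chromosome 13, 31806633 to 31812476) form a second cluster, all on the plus strand. Foxd1 (ENSMUSG00000078302, chromosome 13, 98354242 to 98359305, plus strand) lies alone on the same chromosome. The counting's use of strand is not given in the sources used here. Foxf1 and Foxf2 each share 98 exon bases, and Foxq1 3200, with an annotated gene on the other strand, and those genes were listed at 0 in all 12 libraries.

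The proteins read DNA with a recognition helix that is nearly the same in every forkhead factor. A stretch of 30 coding bases from the region of that helix is shown to let the likeness of the 7 genes be seen. It is read 5′ to 3′ from the GENCODE transcripts. Capitals mark the bases that all 7 share.
Foxf1: AACtcCgTgCGcCACAACCTgTCgCTCAAc
Foxc2: AACagCaTcCGcCACAACCTgTCaCTCAAt
Foxl1: AACagCaTcCGcCACAACCTgTCgCTCAAc
Foxf2: AACtcCgTgCGcCACAACCTcTCgCTCAAc
Foxc1: AACagCaTaCGgCACAACCTcTCgCTCAAc
Foxq1: AACtcCgTgCGcCACAACCTcTCgCTCAAc
Foxd1: AACagCaTcCGtCACAACCTgTCgCTCAAc
Of the 30 bases, 22 are shared by all 7 genes, and Foxf2 and Foxq1 have the same 30. Across whole transcripts the longest identical run was 53 bases for Foxc1 and Foxc2, 41 for Foxf1 and Foxf2, and 32 for Foxf2 and Foxq1. How reads within such runs were assigned is not given in the sources used here.

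The order of the levels differed between the pairs of lines. In Gli2CA cells Foxc2 led with 3.63 ± 0.316 FPKM and every one of its libraries lay above those of the next gene. Foxc1, Foxf1 and Foxl1 followed at 1.63 ± 0.109, 1.53 ± 0.376 and 1.42 ± 0.145 FPKM, with libraries that overlapped between neighbours, and Foxf2 stood below them at 0.518 ± 0.105 FPKM. In NTC cells the 5 genes ran from Foxc2 at 2.05 ± 0.261 FPKM to Foxl1 at 0.598 ± 0.188 FPKM, and neighbours in that order overlapped throughout. In the libraries labelled Cas9-Gli2KO Foxf1 led at 20.01 ± 1.68 FPKM, with Foxc2 at 5.30 ± 2.14 and Foxf2 at 4.13 ± 1.22 FPKM overlapping behind it. In Cas9-NTC cells Foxf1 led at 20.7 ± 1.29 FPKM, before Foxc2 (6.16 ± 0.680), Foxf2 (5.20 ± 0.186), Foxc1 (1.98 ± 0.405) and Foxl1 (0.429 ± 0.0880), with no overlap between neighbours. Foxf1 made up 17.5 ± 4.04% of the summed FPKM of the 7 genes in Gli2CA and 14.3 ± 2.88% in NTC cells, but 63.3 ± 5.94% in the libraries labelled Cas9-Gli2KO and 60.01 ± 0.388% in Cas9-NTC (SD, n = 3).

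**Figure D1:**
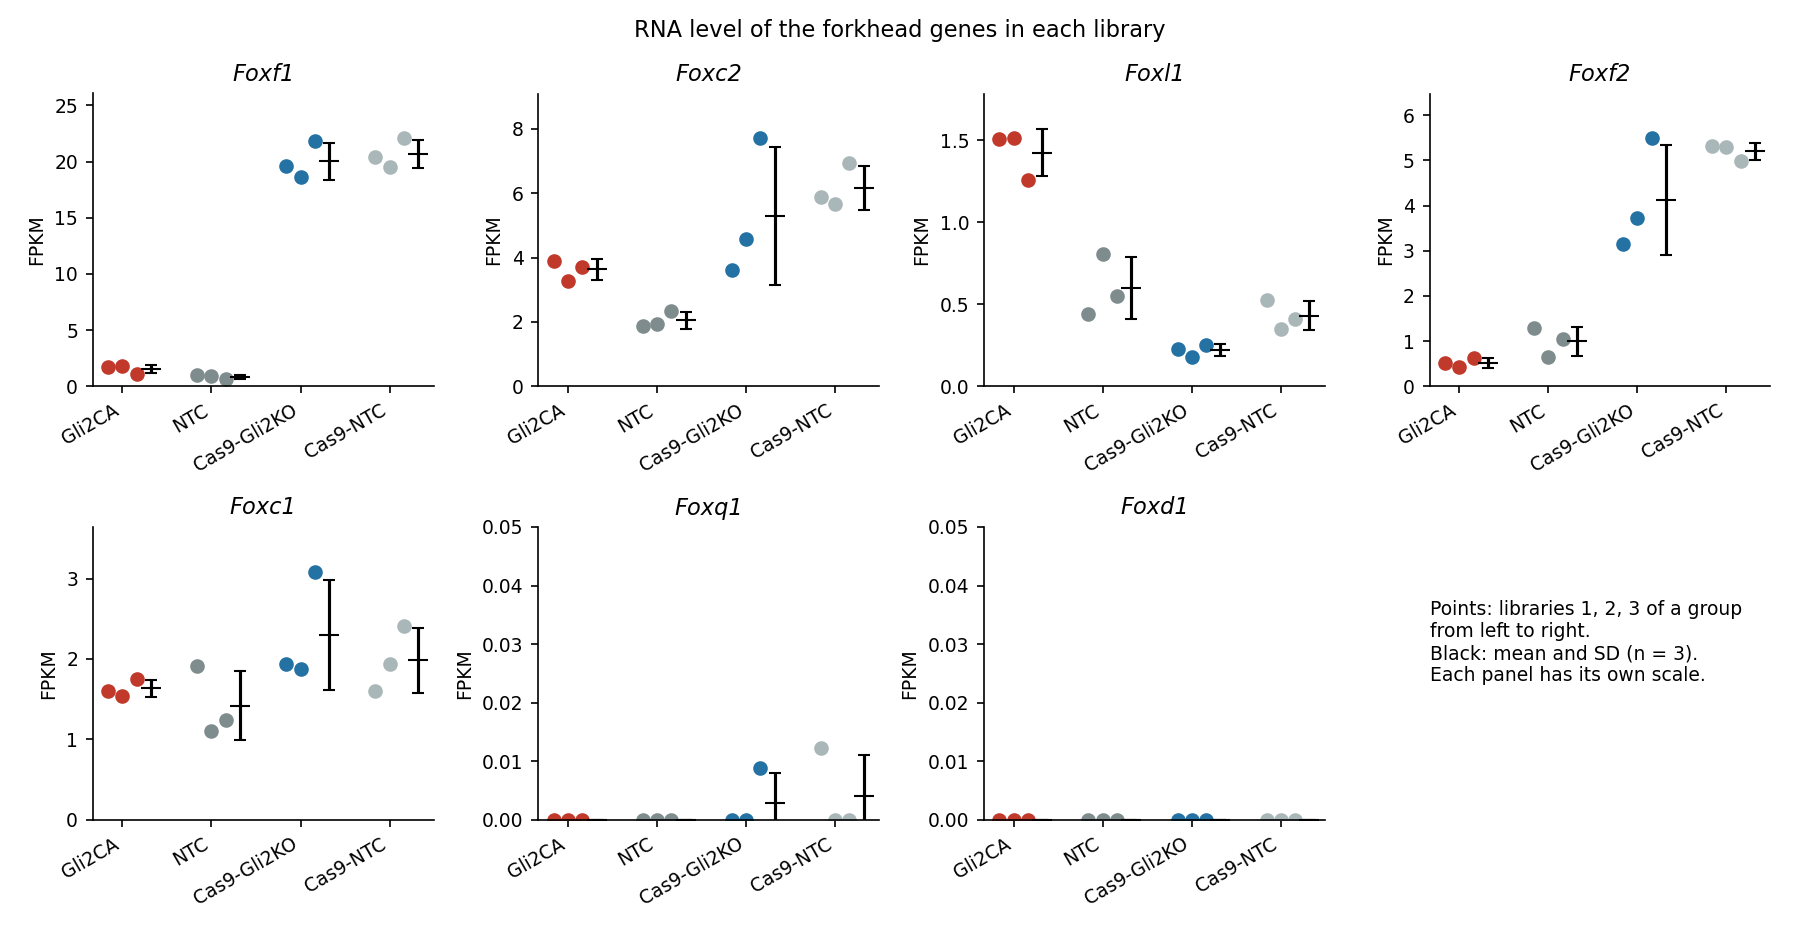
RNA level (FPKM, vertical axis) of each of the 7 forkhead genes in the 12 libraries, by group, with 1 point per library, the mean and SD (n = 3) in black and a scale of its own per panel. Foxf1 lies at 18.6 to 22.1 FPKM in the 6 Cas9 libraries and below 2 FPKM in the others, Foxl1 is highest in the Gli2CA libraries, and Foxq1 and Foxd1 lie at or next to 0.

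The 3 genes of the chromosome 8 cluster had more RNA in Gli2CA than in NTC cells, while those of chromosome 13 were not called. Tests used limma on log2(FPKM + 1) of the 6 libraries, for genes that reached 1 FPKM in 3 or more of them, and a call means a Benjamini-Hochberg adjusted p under 0.05. Of the 7 genes, 4 passed that filter, and 3 of these were called higher and 0 lower, when 14.7% of all 10784 genes tested were called higher and 12.1% lower (26.8% in all). The median log2 change of the 4 was 0.53, beside -0.00 over all genes tested. Foxl1 passed the filter through its Gli2CA libraries alone, and Foxf1 through 3 Gli2CA libraries and 1 NTC library, so the count is given as a description. Under a rescaling of each library to a common FPKM total, the split of all calls moved from 54.8% higher to 984 higher and 2952 lower, and the 3 genes kept positive log2 changes (0.36 for Foxf1, 0.53 for Foxl1 and 0.48 for Foxc2). In bulk RNA, a change in the number of cells that express a gene and a change in RNA per cell cannot be told apart.

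Foxl1, which in mouse gut marks subepithelial mesenchymal cells, changed by the largest ratio of the 3. It was at 1.504, 1.51 and 1.26 FPKM in the Gli2CA libraries, against 0.437, 0.805 and 0.552 FPKM in the NTC libraries. All 3 Gli2CA libraries lay above all 3 NTC libraries. The ratio of means was 2.38 and the log2 change 0.61 (SE 0.12, limma adjusted p = 0.00563). Without the filter it was also called (limma adjusted p = 0.0238), as it was in each of the 13 alternatives in which it could be tested. Without any 1 of the Gli2CA libraries it lay below the filter.

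Foxc2, known in mouse for lymphatic valves and paraxial mesoderm, was the most abundant of the cluster. It was at 3.91, 3.29 and 3.70 FPKM in the Gli2CA libraries, against 1.88, 1.92 and 2.35 FPKM in the NTC libraries. The lowest Gli2CA library stood well above the highest NTC library. The ratio of means was 1.77 and the log2 change 0.60 (SE 0.10, limma adjusted p = 0.00234). Among 16 alternatives the call ended only in a fit that shares the spread of all 4 groups (limma adjusted p = 0.0589).

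Foxf1, a regulator of lung and gut mesenchyme and of their vessels, was called near the threshold. It was at 1.71, 1.79 and 1.10 FPKM in the Gli2CA libraries, against 1.02, 0.877 and 0.644 FPKM in the NTC libraries. The groups did not overlap, but Gli2CA library 3 lay next to NTC library 1. The ratio of means was 1.81 and the log2 change 0.45 (SE 0.14, limma adjusted p = 0.0428). That call ended in 11 of 16 alternatives, with limma adjusted p from 0.0216 to 0.169. It ended without NTC library 1 (limma adjusted p = 0.0524), 2 (0.0571) or 3 (0.107) and without Gli2CA library 1 (0.139) or 2 (0.143). It also ended without the filter (limma adjusted p = 0.127), after rescaling to a common FPKM total (0.0720), with quantile normalisation (0.0884) and with voom on the recovered reads (0.0752).

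No gene of the chromosome 13 cluster was called, and a difference between the 2 clusters was not tested. Foxf2, the close relative of Foxf1 that acts in gut mesenchyme and brain pericytes, was at 0.503, 0.421 and 0.629 FPKM in the Gli2CA libraries, against 1.28, 0.648 and 1.05 FPKM in the NTC libraries. Every Gli2CA library lay below every NTC library, though Gli2CA library 3 lay next to NTC library 2. Foxf2 was below the filter, and its exact 2-sided permutation p was 0.1, the smallest possible (log2 change -0.38). Fits without the filter gave limma adjusted p = 0.157 on log2(FPKM + 1) and 0.0542 with voom on recovered reads (log2 change -1.02), so Foxf2 was not called.

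Foxc1, known in mouse for the anterior eye, the skull and vessels, was at 1.61, 1.54 and 1.75 FPKM in the Gli2CA libraries, against 1.91, 1.11 and 1.24 FPKM in the NTC libraries. NTC library 1 lay above all the others and the groups overlapped. Its log2 change was 0.14 with a 95% interval of -0.16 to 0.44 (limma adjusted p = 0.481). Foxq1 and Foxd1 had 0 reads in all 6 libraries, which allows up to 0.0388 and 0.0371 FPKM, at 3 reads in the shallowest library. These limits cover counting error only.

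Of 9 other genes around Foxf1, 7 passed the filter and limma called 0 of them (1 at an unadjusted p under 0.05, and 1 called with voom). Over all genes tested in this pair, 14.7% were called higher and 12.1% lower. Mthfsd, a folate-enzyme-related gene between Foxf1 and Foxc2, was at 1.502, 1.44 and 1.35 FPKM in the Gli2CA libraries, against 1.23, 1.23 and 1.26 FPKM in the NTC libraries. Its groups did not overlap, but its log2 change of 0.12 did not pass the test (SE 0.09, limma adjusted p = 0.351). Fendrr, a long noncoding RNA that starts 1.28 kb from Foxf1 on the minus strand, was below the filter at 0.226, 0.200 and 0.160 FPKM in the Gli2CA libraries, against 0.277, 0.921 and 0.356 FPKM in the NTC libraries. All Gli2CA libraries were below all NTC libraries, with NTC library 2 far above the others (exact 2-sided permutation p = 0.1). Around Foxc1, 5 other genes were tested and 2 were called lower, Serpinb1a, a protease inhibitor gene (log2 change -0.81, SE 0.06, limma adjusted p = 4.34e-05), and Gmds, an enzyme of fucose synthesis (-0.44, SE 0.09, 0.00897). Around Foxd1, limma called 0 of 5 tested genes (2 at an unadjusted p under 0.05, and 2 called with voom).

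**Figure D2:**
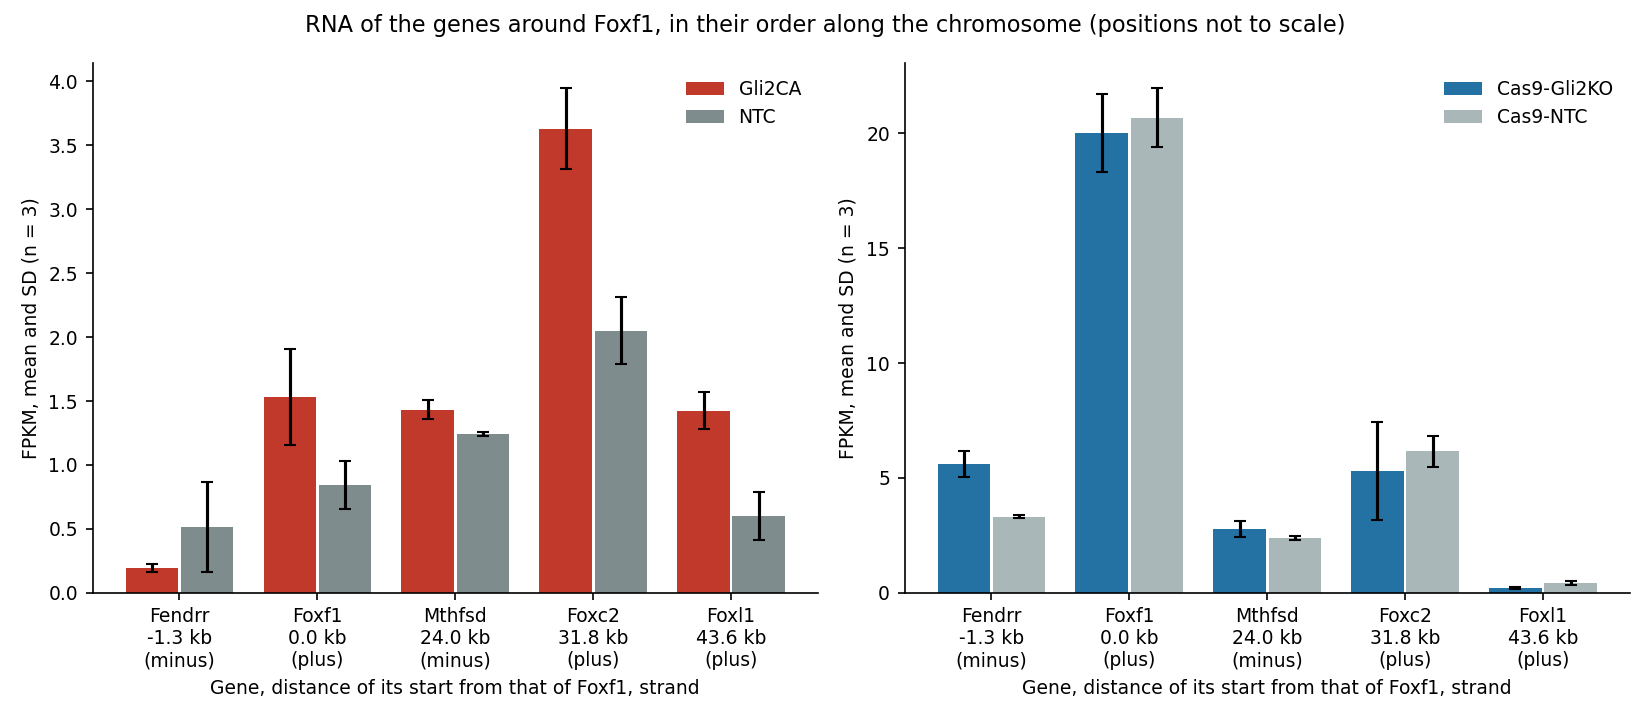
Mean FPKM with SD (n = 3, vertical axis) of Foxf1 and its nearest genes in order along the chromosome, with the distance of each start from that of Foxf1 and the strand, for Gli2CA beside NTC (left) and for libraries labelled Cas9-Gli2KO beside Cas9-NTC (right). In the left panel Foxf1, Foxc2 and Foxl1 stand higher in Gli2CA while Mthfsd between them is nearly level, and in the right panel Fendrr stands at 5.62 against 3.31 FPKM.

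Fendrr and Foxf1 are transcribed away from each other. The 250 bases before the start of Fendrr are shown because they lie between the starts of both genes, whose Gli2CA libraries lay on opposite sides of their NTC libraries. They lie at chr8:121083111-121083360 (RefSeq, GRCm38.p6) and are read on the minus strand towards Fendrr. Capitals mark a match to the forkhead motif, with its first base at position -129 from the start.
Fendrr: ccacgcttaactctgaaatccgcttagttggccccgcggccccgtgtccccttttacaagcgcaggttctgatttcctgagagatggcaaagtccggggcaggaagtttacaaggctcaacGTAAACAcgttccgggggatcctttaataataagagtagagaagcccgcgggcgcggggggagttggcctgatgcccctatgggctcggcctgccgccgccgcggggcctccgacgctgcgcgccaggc
The motif searched was TGTTTAC on both strands, and GTAAACA is its reverse complement. Of 32851 promoter windows of 250 bases before and 50 bases after a start, 3.65% hold it. Foxf2, Foxc1 and Foxd1 had a window in the same table and hold none. The 9-letter Gli motif GACCACCCA, found in 0.253% of windows, and its 7-letter core CCACCCA, which overlaps it and is found in 9.30%, were in none of the windows of Fendrr, Mthfsd, Foxf2, Foxc1, Foxd1 and Ptch1. These are matches of letters in these windows only.

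Between libraries labelled Cas9-Gli2KO and Cas9-NTC libraries, none of the 7 genes was called. Of the 7, 4 passed the filter, and limma called 0 higher and 0 lower, when 1.79% of all 10970 genes tested were called higher and 4.34% lower (6.13% in all). Of the 4, 0 had an unadjusted p under 0.05 and 0 were called with voom. Their median log2 change was -0.14, beside -0.01 over all genes tested. The libraries labelled Cas9-Gli2KO did not move as one, and library 3 was the highest of its group for each of these 4 genes.

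Foxf1 was at 19.6, 18.6 and 21.9 FPKM in the libraries labelled Cas9-Gli2KO, against 20.4, 19.6 and 22.1 FPKM in the Cas9-NTC libraries. The groups overlapped. The log2 change was -0.05 with a 95% interval of -0.31 to 0.22 (limma adjusted p = 0.765). This value had the smallest SE of the 4, 0.11, with 1024 to 1241 reads per library against 834 to 1386. It was called in 0 of 15 alternatives.

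Foxf2 was at 3.16, 3.73 and 5.49 FPKM in the libraries labelled Cas9-Gli2KO, against 5.32, 5.29 and 4.98 FPKM in the Cas9-NTC libraries. Foxc2 was at 3.61, 4.59 and 7.71 FPKM in the libraries labelled Cas9-Gli2KO, against 5.89, 5.66 and 6.93 FPKM in the Cas9-NTC libraries. For both genes, libraries 1 and 2 lay below all Cas9-NTC libraries and library 3 above all of them. Their log2 changes were -0.30 for Foxf2 (95% interval -0.72 to 0.12, limma adjusted p = 0.257) and -0.23 for Foxc2 (95% interval -0.80 to 0.34, limma adjusted p = 0.486). Without library 3 both were called lower, Foxf2 at -0.48 (limma adjusted p = 0.00158) and Foxc2 at -0.49 (0.00592). That fit called 7657 of 10784 genes.

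A trend with transcript length moved with this split. In libraries 1 and 2 labelled Cas9-Gli2KO, genes with under 2 kb of exons stood at a median of 0.59 and 0.43 on the log2(FPKM + 1) scale above the Cas9-NTC mean, and genes of 6 kb or over at -0.34 and -0.26. In library 3 these medians were -0.06 and 0.05. Genes of 2 to 6 kb, the class that holds Foxf1, Foxf2, Foxc2, Foxl1 and Foxc1, stood at -0.00, 0.01 and -0.02 in libraries 1, 2 and 3. The quartiles of that class were -0.44 and 0.44 in library 1, -0.35 and 0.35 in library 2, and -0.18 and 0.13 in library 3. Within it Foxf2 has 2363 exon bases and Foxc1 5844. The part of this trend in the results was not tested.

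Foxc1 was at 1.94, 1.88 and 3.09 FPKM in the libraries labelled Cas9-Gli2KO, against 1.61, 1.94 and 2.41 FPKM in the Cas9-NTC libraries. Library 3 was again the highest, and the groups overlapped (log2 change 0.13, 95% interval -0.29 to 0.56, limma adjusted p = 0.592). Foxl1 was below the filter, with 0.224, 0.178 and 0.252 FPKM in the libraries labelled Cas9-Gli2KO, against 0.524, 0.350 and 0.413 FPKM in the Cas9-NTC libraries. All 3 labelled Cas9-Gli2KO, library 3 included, lay below all Cas9-NTC libraries, at 11 to 16 reads against 24 to 29. The exact 2-sided permutation p was 0.1, the smallest possible, and voom on recovered reads without the filter gave a log2 change of -0.96 (limma adjusted p = 0.142), so Foxl1 was not called. Foxq1 had 1 read in library 3 labelled Cas9-Gli2KO and 1 in Cas9-NTC library 1 and 0 in the other Cas9 libraries, and Foxd1 had 0 reads in all 6.

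Fendrr was the 1 gene called of the 9 tested neighbours of Foxf1, beside 6.13% of all genes tested. It was at 6.24, 5.46 and 5.15 FPKM in the libraries labelled Cas9-Gli2KO, against 3.30, 3.37 and 3.27 FPKM in the Cas9-NTC libraries. All libraries of the first group lay above the second, by a ratio of means of 1.69 (log2 change 0.61, SE 0.10, limma adjusted p = 0.0228). The call ended in 7 of 15 alternatives, with limma adjusted p from 0.000277 to 0.166. It ended without Cas9-NTC library 1 (limma adjusted p = 0.153), 2 (0.165) or 3 (0.166), without library 1 (0.0600) or 2 (0.114) labelled Cas9-Gli2KO, after rescaling (0.0830) and with the replicate number as a block (0.0717). Around Foxc1, 1 of 5 tested genes was called, Serpinb1a, lower in libraries labelled Cas9-Gli2KO (log2 change -0.72, limma adjusted p = 0.0421), a call that ended in 8 of 15 alternatives, 5 of them without 1 library (limma adjusted p = 0.199, 0.229 and 0.169 without Cas9-NTC library 1, 2 or 3, and 0.0513 and 0.167 without library 1 or 2 labelled Cas9-Gli2KO). Around Foxd1, limma called 0 of 6 (2 at an unadjusted p under 0.05, and 0 with voom).

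**Figure D3:**
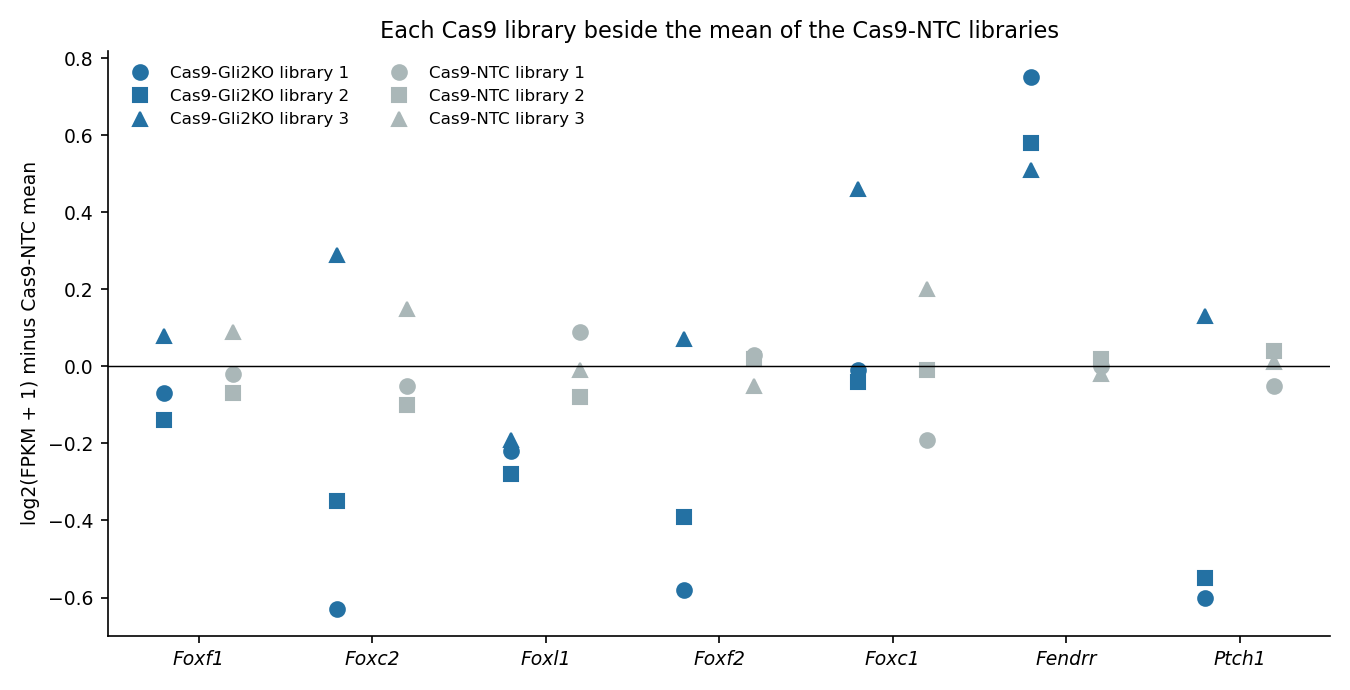
Level of 5 forkhead genes, Fendrr and Ptch1 in each Cas9 library as log2(FPKM + 1) minus the mean of the Cas9-NTC libraries (vertical axis), with marks for libraries 1, 2 and 3. For Foxc2, Foxf2 and Ptch1 libraries 1 and 2 labelled Cas9-Gli2KO lie below the line and library 3 above it, while for Foxl1 all 3 lie below and for Fendrr all 3 above.

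The changes of the pairs were set against each other in 1 fit of all 12 libraries. Of the 7 genes, 5 were tested for a difference between the Gli2CA change and the change in libraries labelled Cas9-Gli2KO, and 2 were called, both with the Gli2CA change higher, when 16.7% of 11860 genes were called in that direction, 11.6% in the other and 28.3% in all. Rescaling to a common FPKM total moved the share of all calls in the first direction to 46.4%, against 58.9%. Foxl1 differed by 0.83 on the log2 scale (SE 0.14, limma adjusted p = 0.00140), and kept its call in each of the 17 alternatives in which it could be tested. It passed that filter through its Gli2CA libraries alone, and without any 1 of them it could not be tested. The alternatives in which Foxl1 kept its call thus all held every Gli2CA library. Foxc2 differed by 0.84 (SE 0.27, limma adjusted p = 0.0390), a call that ended in 16 of 20 alternatives (limma adjusted p from 9.97e-05 to 0.104). Leaving out any 1 library other than library 3 labelled Cas9-Gli2KO ended it, with limma adjusted p from 0.0504 (without NTC library 3) to 0.0932 (without Cas9-NTC library 3). Foxf1 differed by 0.50 with a 95% interval of 0.11 to 0.88 (limma adjusted p = 0.0537), and passed the threshold at a lower pseudocount, 0.1 (limma adjusted p = 0.0400), without Gli2CA library 3 (0.0175) and without library 3 labelled Cas9-Gli2KO (0.0128). For Foxf2 and Foxc1 the differences were -0.08 (95% interval -0.58 to 0.42) and 0.00 (95% interval -0.50 to 0.51).

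For Foxf1, Foxf2 and Foxc2 the control lines differed by more than either pair. Cas9-NTC and NTC cells differ in Cas9, in the blasticidin in their medium and in how each line was made, and these cannot be told apart. All groups carry the same cell line label, but whether both control lines come from 1 parental line was not tested, and the Sox10 levels above differ between them. This comparison shares the Cas9-NTC libraries with the second pair and the NTC libraries with the first. Of the 7 genes, 4 passed the filter, and limma called 3 higher and 0 lower in Cas9-NTC cells, when 31.9% of all 11224 genes were called higher and 33.3% lower (65.2% in all). The median log2 change of the 4 was 1.44, beside 0.01 over all genes tested.

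Foxf1 averaged 20.7 ± 1.29 FPKM in Cas9-NTC and 0.846 ± 0.188 FPKM in NTC cells, a ratio of 24.4 (log2 change 3.56, SE 0.09, limma adjusted p = 1.91e-08). Foxf2 averaged 5.20 ± 0.186 FPKM in Cas9-NTC and 0.993 ± 0.320 FPKM in NTC cells, a ratio of 5.23 (log2 change 1.65, limma adjusted p = 7.16e-06). Foxc2 averaged 6.16 ± 0.680 FPKM in Cas9-NTC and 2.05 ± 0.261 FPKM in NTC cells, a ratio of 3.003 (log2 change 1.23, limma adjusted p = 1.19e-05). None of these 3 genes overlapped between the groups, and each was called in all 16 alternatives. Of the NTC libraries, 1 reached the filter's 1 FPKM for Foxf1, 2 for Foxf2 and 3 for Foxc2.

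Foxc1 was at 1.98 ± 0.405 FPKM in Cas9-NTC and 1.42 ± 0.432 FPKM in NTC cells, with overlapping libraries (log2 change 0.31, 95% interval -0.03 to 0.65, limma adjusted p = 0.0968). It was called without NTC library 1 (limma adjusted p = 0.0192) and with voom on recovered reads (0.0224). Foxl1 was at 0.429 ± 0.0880 FPKM in Cas9-NTC and 0.598 ± 0.188 FPKM in NTC cells, below the filter and overlapping (exact 2-sided permutation p = 0.2). Within the chromosome 8 cluster, Foxf1 and Foxc2 were thus higher in Cas9-NTC cells and Foxl1 was not. Fendrr stood at 3.31 ± 0.0527 FPKM in Cas9-NTC and 0.518 ± 0.351 FPKM in NTC cells (log2 change 1.53, limma adjusted p = 4.14e-05), having passed the filter through its Cas9-NTC libraries alone, and Mthfsd at 2.38 ± 0.0979 and 1.24 ± 0.0177 FPKM (0.59, 0.000102).

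Other members of the forkhead family gave a background for these values. Of 44 forkhead genes, 23 averaged over 1 FPKM in at least 1 group and 10 were at 0 in every library, Foxd1 among them. In Gli2CA cells, 16 of the 37 forkhead genes outside the set of 7 were tested, and 1 was called higher, 4 lower and 11 not. Of all genes tested there, 14.7% were called higher and 12.1% lower. Foxo6, a factor of the insulin-regulated FoxO class, averaged 2.20 ± 0.237 FPKM in Gli2CA and 0.272 ± 0.148 FPKM in NTC cells (log2 change 1.33, SE 0.12, limma adjusted p = 0.000107), and passed the filter only through its Gli2CA libraries. Foxm1, which drives genes of mitosis, averaged 10.8 ± 1.36 FPKM in Gli2CA and 15.5 ± 0.492 FPKM in NTC cells (log2 change -0.48, SE 0.09, limma adjusted p = 0.00542). Foxn2 (-0.38, limma adjusted p = 0.0109) and Foxo1 (-0.35, limma adjusted p = 0.0308) were the next lower. The calls of Foxm1, Foxn2 and Foxo1 ended in the fit of all 4 groups (limma adjusted p = 0.158, 0.0738 and 0.146), and that of Foxo1 in 7 of 16 alternatives (limma adjusted p up to 0.146).

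Of 14 other forkhead genes tested between libraries labelled Cas9-Gli2KO and Cas9-NTC, limma called 0 (3 at an unadjusted p under 0.05, and 0 with voom). Of all genes tested in that pair, 6.13% were called. Between Cas9-NTC and NTC cells, 2 of 16 were higher and 9 lower, beside 31.9% and 33.3% of all genes tested. Foxd3, a neural crest factor chosen here after its values were seen, averaged 1.83 ± 0.167 FPKM in Cas9-NTC and 54.4 ± 8.43 FPKM in NTC cells (log2 change -4.28, SE 0.12, limma adjusted p = 2.40e-08).

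**Figure D4:**
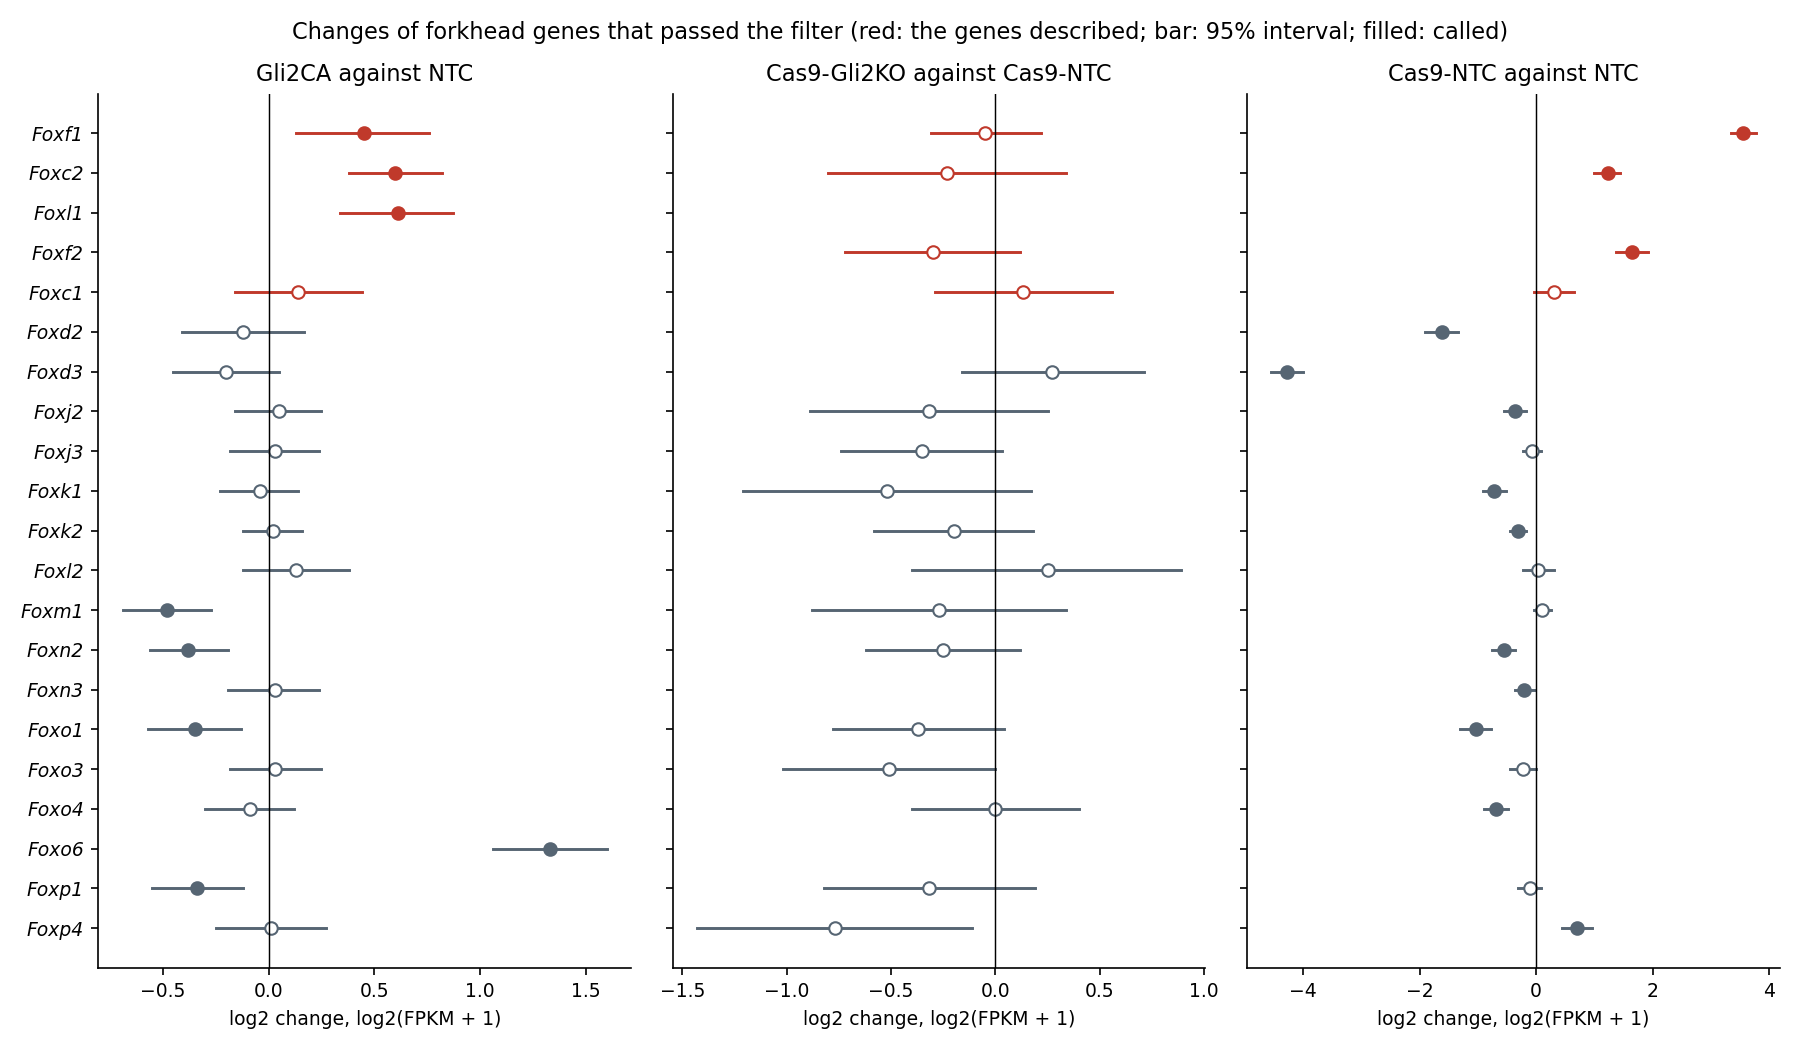
Change on the log2(FPKM + 1) scale (horizontal axis, with its 95% interval) of forkhead genes that passed the filter, for Gli2CA against NTC, libraries labelled Cas9-Gli2KO against Cas9-NTC, and Cas9-NTC against NTC, with the genes described in red and called genes filled. Foxf1, Foxc2 and Foxl1 are filled to the right in the first panel and no gene is filled in the second, and the axis of the third panel is wider, with Foxf1 at 3.56.

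Genes tied to the forkhead factors by pathway were described from lists that leave the 7 genes out. The lists were chosen with earlier results of these data known, so their counts are descriptions only. In Gli2CA against NTC, 14.7% of all genes tested were called higher and 12.1% lower. Between libraries labelled Cas9-Gli2KO and Cas9-NTC these shares were 1.79% and 4.34%. Of 30 Hedgehog and Gli genes, 18 were tested in Gli2CA against NTC, and 8 were higher, 3 lower and 7 not called, with a median log2 change of 0.19 beside -0.00 over all genes. The largest rises were those of Gas1, a Hedgehog co-receptor (2.81 ± 0.293 FPKM in Gli2CA and 0.321 ± 0.0460 in NTC; log2 change 1.53, limma adjusted p = 1.96e-05), and Bmp2, a secreted ligand (40.5 ± 2.40 and 15.0 ± 0.584 FPKM; 1.37, 6.61e-06). Ptch1 followed (0.90, limma adjusted p = 6.76e-05). Gas1 passed the filter only through its Gli2CA libraries. Tbx2, a T-box repressor (-0.73, limma adjusted p = 0.00430), Mycn, a Myc family factor (-0.42, 0.0284), and Gli3, the mainly repressive Gli factor (-0.30, 0.0397), were lower. In libraries labelled Cas9-Gli2KO, 1 of 18 was higher, Tbx2 (5.46 ± 1.72 FPKM against 0.964 ± 0.126 in Cas9-NTC; log2 change 1.69, limma adjusted p = 0.00633), and 1 lower, Cd44, a hyaluronan receptor (57.1 ± 5.99 against 101 ± 1.88 FPKM; -0.81, 0.0141).

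Of 30 transcription factors of mesenchyme, 13 were tested in Gli2CA against NTC, and 4 were higher, 2 lower and 7 not called (median log2 change 0.14). Osr1, which acts in lateral plate mesoderm, averaged 20.7 ± 0.835 FPKM in Gli2CA and 6.69 ± 0.762 FPKM in NTC cells (a ratio of 3.09, limma adjusted p = 1.28e-05). Sox9, a factor of cartilage and neural crest (1.10, limma adjusted p = 2.72e-05), and Twist1, a mesodermal helix-loop-helix factor (0.54, 0.000815), were also higher. Tbx18, a factor of epicardium and somites, was lower (-0.90, limma adjusted p = 0.000600), and passed the filter only through its NTC libraries. In libraries labelled Cas9-Gli2KO, 1 of 14 was called, Prrx2, a homeobox factor of limb mesenchyme, at 11.5 ± 0.235 FPKM against 3.79 ± 0.0281 FPKM in Cas9-NTC (log2 change 1.38, limma adjusted p = 0.00189).

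Of 30 genes that the literature links to these forkhead factors, 12 were tested in Gli2CA against NTC. Of all genes tested there, 14.7% were called higher and 12.1% lower. Among the 12, 8 were higher, 0 lower and 4 not called (median log2 change 0.59). They were led by Grem1, a BMP antagonist, at 117 ± 6.99 FPKM in Gli2CA and 9.46 ± 0.802 FPKM in NTC cells (log2 change 3.50, limma adjusted p = 1.51e-07), Prdm1, a transcriptional repressor (1.05, 0.000140), and Sdc1, a cell-surface proteoglycan (0.71, 0.000264). Prdm1 passed the filter only through its Gli2CA libraries. In libraries labelled Cas9-Gli2KO, 1 of 17 was higher and 6 were lower (median -0.44), beside 1.79% and 4.34% of all genes tested. The lower ones were led by Itgb3, an integrin subunit, at 0.737 ± 0.175 FPKM against 2.47 ± 0.285 FPKM in Cas9-NTC (limma adjusted p = 0.00796), and Grem1, at 62.8 ± 9.94 against 119 ± 3.14 FPKM (log2 change -0.92, 0.0162). The gene called higher was Prdm1 (0.57, limma adjusted p = 0.0499), whose call ended in 10 of 12 alternatives. Itgb3 passed the filter of this pair only through its Cas9-NTC libraries, and Prdm1 only through those labelled Cas9-Gli2KO.

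In this second pair several list calls ended when 1 library was left out. Leaving out 1 Cas9-NTC library ended those of Tbx2 (limma adjusted p = 0.0590 to 0.0766), Cd44 (0.126 to 0.141) and Grem1 (0.126 to 0.142), whichever library it was. Leaving out library 2 labelled Cas9-Gli2KO ended those of Cd44 (0.0921), Grem1 (0.105) and Itgb3 (0.0544). Over all such fits the log2 changes stayed at 1.48 to 1.81 for Tbx2, -0.88 to -0.73 for Cd44 and -1.04 to -0.84 for Grem1. Prrx2 kept its call in all 15 alternatives.

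Markers of other cell types moved with some of these groups. The summed level of the 12 fibroblast markers was 91.2 to 104 FPKM in Gli2CA and 79.5 to 89.2 FPKM in NTC libraries, and 120 to 271 FPKM in libraries labelled Cas9-Gli2KO and 251 to 262 FPKM in Cas9-NTC. Lum was at 0 in all groups and Fap in Gli2CA and NTC. Most of each sum was Col3a1, which averaged 91.3 FPKM in Gli2CA and 78.2 FPKM in NTC, and 150 FPKM in libraries labelled Cas9-Gli2KO and 232 FPKM in Cas9-NTC. The summed level of the 14 melanocyte markers was 163 to 179 FPKM in Gli2CA and 195 to 214 FPKM in NTC libraries, and 61.7 to 99.2 FPKM in libraries labelled Cas9-Gli2KO and 112 to 114 FPKM in Cas9-NTC. That sum was mostly Sox10 in Gli2CA and NTC cells and mostly Gpnmb in the Cas9 groups, so the sums do not follow 1 set of genes. The 12 endothelial markers summed to 23.9 to 26.0 FPKM in Gli2CA and 7.34 to 8.998 FPKM in NTC libraries, with Emcn and Cldn5 at 0 in both, and to 31.5 to 48.3 FPKM in libraries labelled Cas9-Gli2KO and 36.8 to 41.8 FPKM in Cas9-NTC. Keratinocyte and leukocyte markers, 12 each, summed to at most 5.65 and 9.73 FPKM in any library. Of the tested markers in Gli2CA against NTC, limma called 3 of 4 melanocyte markers lower, 1 of 3 fibroblast markers higher and 1 lower, 1 of 2 endothelial and 1 of 1 leukocyte markers higher, and 0 of 1 keratinocyte markers (0 at an unadjusted p under 0.05, and 0 with voom). In libraries labelled Cas9-Gli2KO against Cas9-NTC it called 0 of 2 melanocyte and 0 of 3 endothelial markers (1 and 2 at an unadjusted p under 0.05, and 0 with voom), 1 of 5 fibroblast markers higher and 2 lower, and 1 of 2 keratinocyte and 1 of 1 leukocyte markers lower. Of all genes tested, 14.7% were called higher and 12.1% lower in the first pair, and 1.79% and 4.34% in the second. The part of these markers in the forkhead values was not tested.

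Across the 12 libraries, the 5 detected forkhead genes followed each other to different degrees. Pearson's r of log2(FPKM + 1) was 0.94 for Foxf1 and Foxf2, 0.84 for Foxf1 and Foxc2 and 0.74 for Foxc1 and Foxc2. Foxl1 ran against the others, with -0.69 for Foxf1 and -0.81 for Foxf2, although Foxf1 and Foxl1 lie 43.6 kb apart. These values mostly describe the gap between the Cas9 lines and the others, since the libraries fall into those sets. The genes most like each one among 10740 were Mmd (r = 0.998), Arap3 (0.997) and Apcdd1 (0.996) for Foxf1, Ccnf (0.994), Paqr7 (0.994) and Jade1 (0.993) for Foxf2, and Cerk (0.977), Nxpe3 (0.972) and Adamts14 (0.971) for Foxc2. For Foxl1 they were Vdac2 (0.979), Plat (0.969) and Spint1 (0.968), and for Foxc1 Map3k1 (0.919), Dynll2 (0.916) and Mllt6 (0.912).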

How the data were processed

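RNA levels were analysed in 12 mouse melanoma libraries, in 4 groups of 3 taken from the labels. Levels were deposited as FPKM by the authors, for 54532 genes. How reads were aligned, counted and assigned to strands is not given in the sources used here. With GENCODE M21 (GRCm38) exon lengths, 97.8 to 98.4% of values of 20 reads or fewer came out whole within 0.02 of a read, which gave read numbers and depth. That share of whole reads and the gene names rest on M21, which held 54495 of the IDs.

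The test was limma 3.58.1 (R 4.3.3) on log2(FPKM + 1) with a trended prior and no further scaling, for genes that reached 1 FPKM in 3 or more libraries of the fit, with 2-sided Benjamini-Hochberg adjusted p under 0.05 as a call. The log2(FPKM + 1) scale understates changes of low genes. Each comparison of groups used its own 6 libraries (4 residual degrees of freedom), because the spread differed between groups, and the difference of changes used all 12 (8). Genes below the filter had exact 2-sided permutation tests, which cannot go below 0.1. Ratios are of mean FPKM. The procedure was tested on simulated data with 200 changed genes. Changes of 1 on the log2 scale, up or down, were recovered in 82 to 94% of cases in the first pair. This was 68 to 70% in the second pair, 92 to 98% between the controls and 64 to 70% for the difference of changes. False calls numbered 15 of 10584 unchanged genes in the first pair and 29 of 10770 in the second. They numbered 12 of 11024 between the controls and 64 of 11660 for the difference. The simulated noise was drawn for each gene on its own. Shifts shared by many genes of 1 library, as in those labelled Cas9-Gli2KO, were thus not simulated. These rates may therefore not hold in the second pair or for the difference.

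Alternatives were pseudocounts of 0.1 and 5, no filter, rescaling to a common FPKM total, quantile normalisation, library weights, the replicate number as a block, voom on recovered reads, a fit of all 4 groups, and each library left out. Library weights did not converge where libraries labelled Cas9-Gli2KO entered, and were not used there. Voom on recovered reads with no FPKM filter was added after the data were seen.

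The rule for the 7 genes uses symbols and no measured value, but these genes and the lists were chosen with earlier results of these data known. Named genes were the 7, Gli1, Gli2 and Ptch1, up to 3 called genes per list, direction and pair with the largest changes, neighbours of called members, and the 3 genes most like each detected member over the 12 libraries. Foxd3 was added after its values were seen. Some items are not reported here. Protein sequences were not used here.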

Additional observations from a re-analysis of the deposited data

Results flagged for a closer look

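Several genes responded differently in the pairs, by the test of the difference of log2 changes (Gli2CA against NTC, less libraries labelled Cas9-Gli2KO against Cas9-NTC) in the limma fit of all 12 libraries. Of the forkhead genes of the report, Foxl1 differed by 0.83 (limma adjusted p = 0.00140) and Foxc2 by 0.84 (0.0390), a difference that lost its call in 16 of 20 alternatives. Foxl1 was above all NTC libraries in 3 of 3 Gli2CA libraries and below all Cas9-NTC libraries in 3 of 3 libraries labelled Cas9-Gli2KO. In that second pair it was below the filter, at 11 to 16 reads against 24 to 29, and was not called. Foxo6 differed by 1.44 (limma adjusted p = 0.000196). Both Foxl1 and Foxo6 passed the filter of this fit only through their Gli2CA libraries, so their differences are given as a description.

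Among Hedgehog genes, the differences were 1.24 for Ptch1 (limma adjusted p = 0.00210), 1.81 for Gas1 (2.55e-05), 1.66 for Bmp2 (0.000114), 1.15 for Cd44 (6.47e-05) and -2.42 for Tbx2 (4.93e-05). Tbx2 was lower in Gli2CA than in NTC and higher in libraries labelled Cas9-Gli2KO than in Cas9-NTC, each without overlap of the libraries. Among mesenchymal factors they were 1.34 for Osr1 (limma adjusted p = 0.000617), 1.33 for Sox9 (0.00442) and -1.36 for Prrx2 (2.41e-06), a difference that lost its call in 2 of 20 alternatives, both with voom (limma adjusted p = 0.263 and 0.345). Prrx2 averaged 0.00940 ± 0.0163 FPKM in Gli2CA and was at 0 in NTC libraries.

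Among genes linked to forkhead factors, Grem1 had the largest difference of the genes named here at 4.42 (limma adjusted p = 2.37e-08), called higher in Gli2CA and lower in libraries labelled Cas9-Gli2KO. Itgb3 differed by 1.17 (limma adjusted p = 0.000154) and Prdm1 by 0.48 (0.0337), although Prdm1 was called higher in both pairs, and its difference lost its call in 11 of 20 alternatives. Beside the forkhead loci, Fendrr differed by -0.93 (limma adjusted p = 0.00460) and Gmds by -0.93 (0.00217). The melanosome gene Rab38 differed by -1.60 (limma adjusted p = 0.00104), having averaged 1.31 ± 0.523 FPKM in Gli2CA and 5.22 ± 0.569 FPKM in NTC libraries. The libraries labelled Cas9-Gli2KO spread more than the others, and all groups share 1 spread in this fit.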

How the results depend on the processing

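No called change of the 7 genes changed sign under an alternative, but some uncalled changes did. The Foxf2 difference of changes (-0.08) ran from -0.59 to 0.10. Foxc1 in libraries labelled Cas9-Gli2KO against Cas9-NTC (0.13) ran from -0.03 to 0.24. Among all genes called in Gli2CA against NTC, rescaling to a common FPKM total moved the share higher from 54.8% to 25%. Of the values of the 7 genes under alternatives, 52 of 64 kept their side of the threshold in Gli2CA against NTC. The counts were 62 of 64 in libraries labelled Cas9-Gli2KO against Cas9-NTC and 65 of 68 in Cas9-NTC against NTC. For the difference of changes 79 of 98 did. The number of genes called moved over 1.5 times, and its cause was not tested. In Gli2CA against NTC it was 2894, and 4797 with library weights, 1685 in the fit of all 4 groups, 4359 with voom and no FPKM filter, and 1632 to 3041 with 1 library left out. In libraries labelled Cas9-Gli2KO against Cas9-NTC it was 672, and 3182 in the fit of all 4 groups, and 18 to 7657 with 1 library left out (18, 18 and 37 without Cas9-NTC library 1, 2 or 3, and 324, 131 and 7657 without library 1, 2 or 3 labelled Cas9-Gli2KO). For the difference it was 3356, and 2317 to 7476 with 1 library left out. In Cas9-NTC against NTC (7321) it stayed within 1.5 times, at 5800 to 7153 with 1 library left out. Library weights did not converge in the second pair or for the difference and gave no value there.

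Same-numbered libraries correlated by 0.10, 0.01 and -0.05 in the first pair, 0.25, -0.15 and 0.20 in the second and -0.09, -0.04 and 0.09 between the controls. Library 2 labelled Cas9-Gli2KO and Cas9-NTC library 1 also reached 0.25. With 3 libraries per group, these values cannot show whether the numbers pair the libraries. With the replicate block, 2740, 355, 7022 and 3100 genes were called in the 2 pairs, the control lines and the difference, and no call of the 7 genes changed.

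Rescaling to a common FPKM total moved the median of all genes in Gli2CA against NTC by -0.14 and the split of calls to 984 higher and 2952 lower, against 1587 and 1307, while voom gave a median of -0.10 and 34.0% of calls higher, against 54.8%. In the second pair rescaling moved the median from -0.01 to -0.16, and quantile normalisation gave 38.7% higher against 29.2%. Depth limits Foxl1, Foxf2 and Foxf1 in Gli2CA and NTC libraries, which had 18 to 78 reads each, and 0 reads of Foxd1 do not show that it is absent.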
